A study of Mus musculus with 4 samples.

Results

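The genes of arginine uptake and use described here were chosen by symbol. They are the cationic amino acid transporters Slc7a1 and Slc7a2, the arginases Arg1 and Arg2, the ornithine aminotransferase Oat, the inducible nitric oxide (NO) synthase Nos2, its cofactor enzyme Gch1, and the citrulline recycling enzymes Ass1 and Asl. These are 9 of the 32285 genes in the matrices, and each symbol matched 1 row. The series compared CD11b+ tumor cells without and with VISTA, an inhibitory receptor encoded by Vsir. Bone marrow chimeras carried VISTA KO or WT marrow of the C57/BL6 strain, were left for 6 weeks to reconstitute, and bore MC38 tumors, a transplanted mouse colon carcinoma, of 9 to 10 mm. Tumors were pooled, the CD45.1 and CD45.2 alleles separated the genotypes, and live CD11b+ cells were sorted for sequencing on the 10x Genomics 3 prime v3.1 platform with antibody tags for CD11c, Ly6G and Ly6C. Each group had 1 gene expression library and 1 tag library, so there was no replicate check and no test. Every interval below is a 95% interval that covers counting error only.

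Arginine enters myeloid cells through cationic amino acid transporters and is then drawn on by competing enzymes. Arginase splits it into ornithine and urea, while inducible NO synthase makes NO and citrulline and needs tetrahydrobiopterin, whose synthesis Gch1 limits. Argininosuccinate synthase (Ass1) and lyase (Asl) turn the citrulline back into arginine. In mouse macrophages Arg1 is a classical target of IL-4 and Nos2 of interferon-gamma, and both genes are used as markers of tumor myeloid cells that suppress T cells.

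The VISTA KO library held 15257 barcodes and 80366761 gene UMIs (unique molecular identifiers), and the WT library 10241 barcodes and 61753547 gene UMIs. Both numbers of barcodes were above the 10000 cells loaded. Filtering kept 15140 VISTA KO and 10193 WT cells, with medians of 4212 and 4692 UMIs, and 46 kept barcode sequences occurred in both libraries. Levels are UMIs of a gene per 1000000 UMIs summed over the cells of a class (CPM). Vsir itself was at 46.2 CPM in VISTA KO and 137 CPM in WT cells. The sources used here do not name the deleted part of the gene, and a 3 prime tag outside that part checks nothing.

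Classes were named from marker RNA after clustering without the 9 genes or their pathway lists. Macrophage-like cells (C1qa, Apoe, Trem2) were 23.6% of VISTA KO and 11.7% of WT cells, and monocyte-like cells (Vcan, Chil3, Plac8) 12.0% and 22.3%. A mixed class with neutrophil and macrophage RNA was 5.17% of VISTA KO and 19.0% of WT cells, at medians of 10380 and 9557 UMIs. Whether its droplets held 2 cells was not tested. Itgam, which encodes CD11b, was at 499 CPM in VISTA KO and 487 CPM in WT cells, and at 125 and 135 CPM in the few T cell-like cells. Several clusters stayed unnamed and are called by their leading genes. Among them, the Gpr84/Cxcl9 cluster held 1068 VISTA KO and 174 WT cells, and the Ccl7/Ccl2 cluster 702 and 774. Monocyte markers summed to 17427 CPM in VISTA KO and 18077 CPM in WT monocyte-like cells. The unnamed Ifit1bl1/Tnfsf10 cluster had sums of 17725 and 19691 CPM. The Ccl7/Ccl2 cluster had 13209 and 15343 CPM, and the Gpr84/Cxcl9 cluster 12574 and 18087 CPM. Such unnamed clusters thus carried monocyte RNA as well. The Ppfia4/Ifi202b cluster held 1823 VISTA KO and 219 WT cells, and a low-RNA AC149090.1/Malat1 cluster 1868 and 225. Clusters that are mostly of 1 library may reflect that library and not a cell type.

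Free RNA, or RNA from a second cell in a droplet, was measured in the natural killer (NK) cell-like class, whose defining markers reached 16827 CPM in VISTA KO and 22743 CPM in WT cells. All 14 markers of the macrophage list were found there as well, at a summed 7336 CPM in VISTA KO and 5273 CPM in WT cells. Arg1 in this class was at 1069 CPM in VISTA KO and 697 CPM in WT cells, and Nos2 at 25.4 and 9.88 CPM. Slc7a2 was at 29.99 CPM in VISTA KO and 6.33 CPM in WT NK cell-like cells. In NK cell-like cells with no UMI of C1qa, C1qb or C1qc, Slc7a2 had 0 UMIs in 135 VISTA KO cells and 3 UMIs in 406 WT cells, where 3 counts equal 7.48 and 2.61 CPM. Arg1 was then at 252 CPM in VISTA KO and 172 CPM in WT cells, and Nos2 at 2 UMIs in each library. Such cells without C1q RNA were 22.8% of the VISTA KO and 64.0% of the WT NK cell-like class, so C1q RNA was found in a larger share of NK cell-like droplets in the VISTA KO library. The direction was the same in monocyte-like (26.3% and 53.4%, VISTA KO first), cDC2-like (23.0% and 60.4%) and neutrophil-like cells (24.7% and 69.7%). T cell-like cells, only 16 in VISTA KO, had 31.25% and 58.5%. The difference was thus not particular to NK cell-like droplets. The part of such RNA in the differences between the libraries was not tested.

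**Figure D1:**
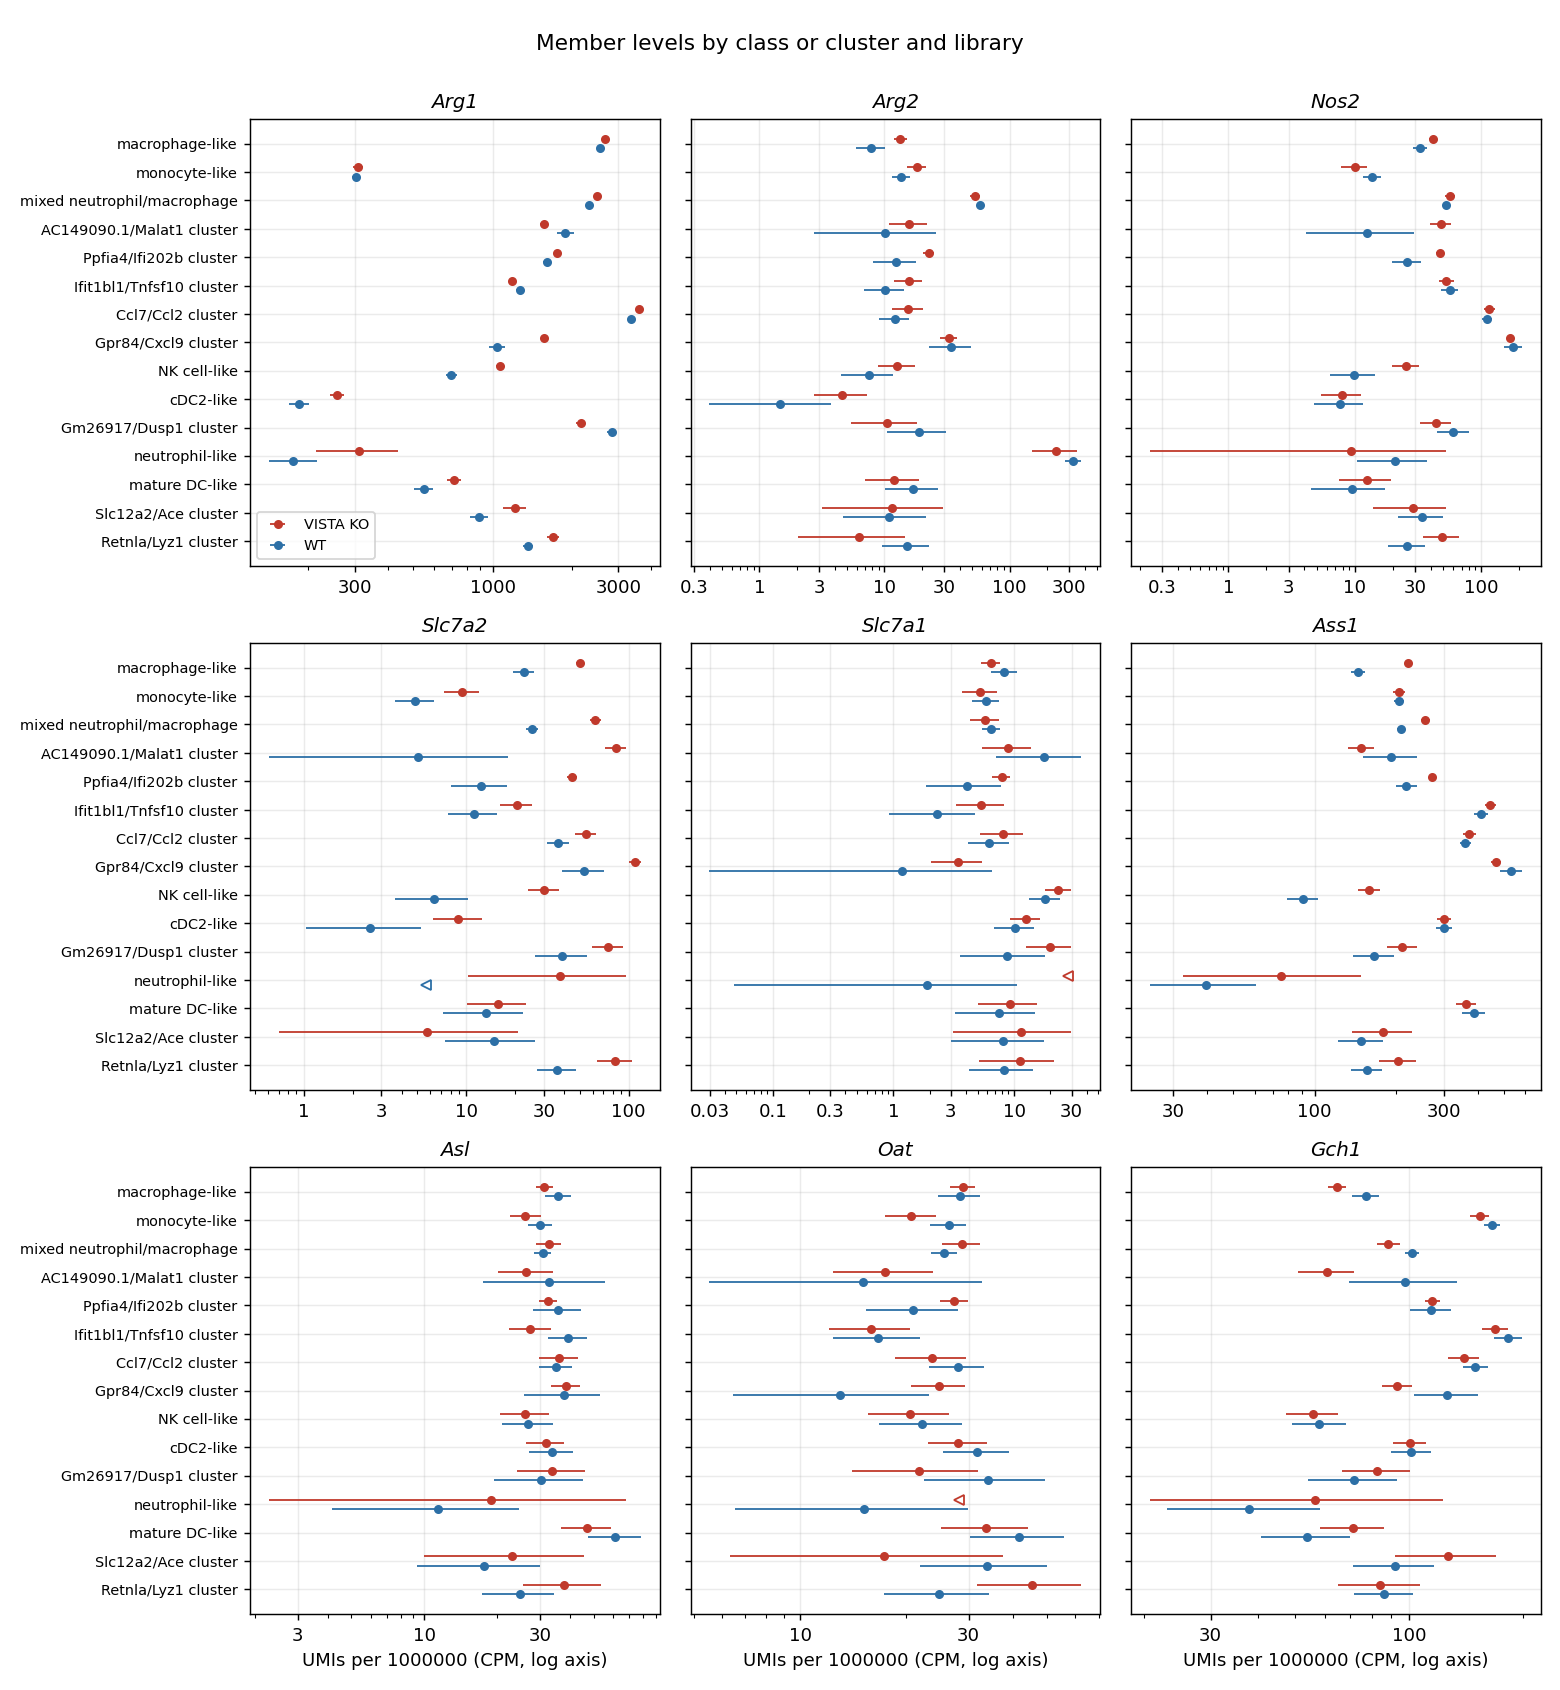
Level of each of the 9 genes in 15 classes and clusters, as CPM on a log axis, with VISTA KO (red) above WT (blue) in each row. Bars are exact Poisson intervals of the summed UMIs, and open triangles mark 3 counts where no UMI was found. Arg1 spans 176 to 3588 CPM, and Slc7a2 lies higher in VISTA KO cells in most rows.

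Slc7a2, the transporter that macrophages induce on activation, was higher in VISTA KO cells in most classes. The gene lies at chr8:40862341-40922070 (GRCm38.p6, the assembly behind mm10). Over all kept cells it was at 47.2 CPM (3790 UMIs) in VISTA KO and 19.2 CPM (1183 UMIs) in WT cells, a log2 ratio of 1.30 (interval 1.21 to 1.40). By the rule used for counts, a ratio of at least 1.5-fold with an interval that leaves out 1, it was higher in VISTA KO cells. It was the only one of the 9 genes that met the rule in all kept cells, and none was lower. Of all 11499 genes with at least 100 UMIs, 4.43% were higher and 4.19% lower by the same rule.

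In macrophage-like cells Slc7a2 was at 50.3 CPM in VISTA KO and 22.7 CPM in WT cells, a log2 ratio of 1.14 (0.92 to 1.39). Both macrophage-like clusters had the same direction, with 48.4 against 29.3 CPM in the C1q cluster and 53.0 against 19.7 CPM in the Mmp12 cluster, VISTA KO first. The mixed neutrophil and macrophage class was at 62.5 CPM in VISTA KO and 25.4 CPM in WT cells (log2 ratio 1.30). The highest level, 110 CPM in VISTA KO and 53.1 CPM in WT cells, was in the Gpr84/Cxcl9 cluster (log2 ratio 1.02), where Slc7a2 was among the leading genes. In monocyte-like cells it was low, at 9.40 CPM (68 UMIs) in VISTA KO and 4.85 CPM (52 UMIs) in WT cells (log2 ratio 0.948, interval 0.412 to 1.504). With a stricter cell filter the monocyte-like ratio was 0.13 (-0.27 to 0.51), and with pathway genes kept in the clustering 0.14 (-0.15 to 0.43), so its call did not hold there. Monocyte-like cells without C1q RNA held Slc7a2 at 8.45 CPM (15 UMIs, 4.73 to 13.9) in VISTA KO cells. The WT value was 4.95 CPM (27 UMIs, 3.26 to 7.20), and the intervals overlapped. Without C1q RNA, cDC2-like cells had 6 Slc7a2 UMIs in VISTA KO and 1 UMI in WT cells. Among 18 classes and clusters, Slc7a2 was higher in VISTA KO cells in 17, and in all 11 of those with at least 100 UMIs the interval lay above 0. One of these 11, the Ccl7/Ccl2 cluster, did not reach 1.5-fold, at 54.7 CPM in VISTA KO and 36.9 CPM in WT cells (log2 ratio 0.57). Among these 11, the AC149090.1/Malat1 cluster had the widest gap, 83.4 CPM in VISTA KO and 5.02 CPM in WT cells, but only 2 UMIs lay behind the WT value (log2 ratio 3.48, interval 2.18 to 7.11). The NK cell-like background class had a log2 ratio of 2.17 (1.46 to 3.12), from 85 UMIs in VISTA KO and 16 UMIs in WT cells, beside its macrophage marker sums of 7336 and 5273 CPM. Neighbours in the order of the 15 largest units by Slc7a2 cannot be told apart: from each unit to the next, the ranges spanned by both libraries overlapped. Some units further apart did separate, such as the Gpr84/Cxcl9 cluster (53.1 to 110 CPM) and monocyte-like cells (4.85 to 9.40 CPM).

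Slc7a1, the housekeeping transporter of the same family, was low throughout, at 7.71 CPM in VISTA KO and 7.16 CPM in WT cells (log2 ratio 0.11, interval -0.07 to 0.29). In NK cell-like cells it was at 23.3 CPM in VISTA KO and 18.2 CPM in WT cells, a range that overlapped the next unit, the Gm26917/Dusp1 cluster at 19.9 and 8.80 CPM. It was at a like level in NK cell-like cells without C1q RNA, at 27.4 CPM in VISTA KO and 20.9 CPM in WT cells. It was the one member whose NK cell-like level exceeded that of all kept cells, 302% of it in the VISTA KO and 254% in the WT library. Of the wider list of 11 cationic and linked amino acid transporters, 9 had at least 100 UMIs in all kept cells. Slc7a2 was higher, while Slc7a5, a large neutral amino acid carrier, was lower at 2.07 CPM in VISTA KO and 4.67 CPM in WT cells. Slc7a11, the cystine-glutamate exchanger, was lower as well, at 26.9 and 55.6 CPM. In macrophage-like cells Slc7a11 was at 19.3 CPM in VISTA KO and 21.4 CPM in WT cells and did not meet the rule. It was not lower by the rule in any class or cluster counted, and it was higher in VISTA KO cells of the Gpr84/Cxcl9 cluster.

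Arg1, the cytosolic arginase at chr10:24915207-24927470, was by far the most abundant of the 9 genes by UMIs, at 1852 CPM (148646 UMIs) in VISTA KO and 1697 CPM (104706 UMIs) in WT cells. Its level differed more between classes than between libraries. The Ccl7/Ccl2 cluster was highest with 3588 CPM in VISTA KO and 3336 CPM in WT cells, and its range did not overlap that of macrophage-like cells, at 2671 and 2553 CPM. The mixed neutrophil and macrophage class, at 2493 CPM in VISTA KO and 2328 CPM in WT cells, and the low-RNA Gm26917/Dusp1 cluster, at 2162 and 2824 CPM, could not be ordered against each other. The Ifit1bl1/Tnfsf10 cluster, with monocyte marker sums no lower than the monocyte-like class, was at 1187 CPM in VISTA KO and 1269 CPM in WT cells. Monocyte-like cells as named here were low, with 310 CPM in VISTA KO and 304 CPM in WT cells. They overlapped the neutrophil-like class at 311 and 176 CPM. The cDC2-like class, at 258 CPM in VISTA KO and 184 CPM in WT cells, overlapped the neutrophil-like class as well. Monocyte-like cells without C1q RNA still held 290 CPM in VISTA KO and 266 CPM in WT cells, above the 252 and 172 CPM of NK cell-like cells chosen in the same way, although the VISTA KO intervals (266 to 316 and 205 to 306 CPM) overlapped.

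The log2 ratio of Arg1 was 0.07 (0.04 to 0.09) in macrophage-like and 0.03 (-0.05 to 0.10) in monocyte-like cells. Neither met the 1.5-fold rule, and both depended on which clusters formed the class. The 2 monocyte-like clusters went opposite ways, with 254 CPM in VISTA KO and 233 CPM in WT cells of the Vcan cluster, and 538 and 780 CPM in the Ly6c2 cluster (log2 ratios 0.13 and -0.54). Across the other settings the monocyte-like ratio ran from -0.78 with a stricter cell filter to 0.77 with each library clustered alone. The macrophage-like ratio turned to -0.21 when the pathway genes were kept in the clustering. In the Gpr84/Cxcl9 cluster Arg1 met the rule, at 1562 CPM in VISTA KO and 1040 CPM in WT cells (log2 ratio 0.58, interval 0.49 to 0.69). The NK cell-like class, where Arg1 serves as background, had a ratio of the same size (log2 0.62), and macrophage markers summed to 9253 CPM in VISTA KO and 4964 CPM in WT cells of the Gpr84/Cxcl9 cluster. Their part in this difference was not tested.

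The cell with the most Arg1 had 162 UMIs in the VISTA KO and 184 UMIs in the WT library. Macrophage-like cells supplied 37.1% of the Arg1 UMIs of the VISTA KO library and 18.7% of those of the WT library. The mixed neutrophil and macrophage class supplied 15.2% in the VISTA KO and 47.0% in the WT library. The near-equal total level was thus summed from different classes in each library.

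Arg2, the mitochondrial arginase, was highest in the classes with neutrophil RNA. It reached 235 CPM (25 UMIs) in VISTA KO and 323 CPM (171 UMIs) in WT neutrophil-like cells, and 53.1 and 57.7 CPM in the mixed neutrophil and macrophage class. The neutrophil-like intervals, 152 to 348 and 277 to 375 CPM, overlapped, and both ranges stood clear of all other units. Over all kept cells Arg2 was at 21.5 CPM in VISTA KO and 29.8 CPM in WT cells (log2 ratio -0.47, interval -0.56 to -0.37), beside a share of neutrophil-like and mixed cells that was also lower in the VISTA KO library. Within macrophage-like cells the direction was the other one, with 13.4 CPM (276 UMIs) in VISTA KO and 7.82 CPM (60 UMIs) in WT cells, a log2 ratio of 0.76 (0.37 to 1.20) that met the rule. The ratio was 0.14 (-0.38 to 0.69) without the C1q cluster and 0.21 (-0.22 to 0.67) with a stricter cell filter, so the call did not hold there. Oat, which takes ornithine on towards proline and glutamate, was at 25.9 CPM in VISTA KO and 25.8 CPM in WT cells (log2 ratio 0.01, interval -0.09 to 0.10). It met the rule in the Gpr84/Cxcl9 cluster, at 24.7 CPM in VISTA KO and 12.97 CPM in WT cells, where the WT value rests on 11 UMIs. Of 11 listed genes for arginases and ornithine use, 10 had enough UMIs in all kept cells and none met the rule in either direction, with a median log2 ratio of 0.00, beside 0.08 over all genes measured. Odc1, which starts polyamine synthesis from ornithine, was at 52.1 CPM in VISTA KO and 57.5 CPM in WT cells. Prodh had the highest log2 ratio of this list, 0.50.

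Nos2, at chr11:78920787-78960226, was lower in abundance by UMIs than Arg1. Over all kept cells it was at 51.1 CPM (4104 UMIs) in VISTA KO and 42.3 CPM (2609 UMIs) in WT cells (log2 ratio 0.27, interval 0.20 to 0.35). Its peak was the Gpr84/Cxcl9 cluster, at 170 CPM in VISTA KO and 179 CPM in WT cells, followed by the Ccl7/Ccl2 cluster at 116 and 112 CPM. The ranges of these 2 clusters did not overlap each other or the next unit, the mixed class at 57.0 CPM in VISTA KO and 52.9 CPM in WT cells. Within both clusters the level was close between libraries, with log2 ratios of -0.08 (-0.33 to 0.18) and 0.06 (-0.14 to 0.25). The Gpr84/Cxcl9 cluster made up 7.05% of VISTA KO and 1.71% of WT cells, and held 21.7% and 5.83% of the Nos2 UMIs of its library. Macrophage-like cells were at 41.3 CPM in VISTA KO and 33.0 CPM in WT cells (log2 ratio 0.32, interval 0.12 to 0.53). Monocyte-like cells were at 9.96 CPM (72 UMIs) in VISTA KO and 13.8 CPM (148 UMIs) in WT cells (log2 ratio -0.46, interval -0.90 to -0.06). The NK cell-like values of 25.4 and 9.88 CPM were above them in VISTA KO and below them in WT cells. Macrophage marker sums were higher in NK cell-like than in monocyte-like cells, so these values are not a background level for the monocyte-like class. Without C1q RNA, WT monocyte-like cells held Nos2 at 13.75 CPM (10.8 to 17.2) and WT NK cell-like cells at 1.74 CPM (0.21 to 6.29). The VISTA KO values chosen in the same way, 9.57 CPM (5.58 to 15.3) and 4.98 CPM (0.60 to 18.0), had overlapping intervals. With the 3 unnamed clusters led by Ifit, Ccl7 and Gpr84 genes added to the monocyte-like class, its Nos2 log2 ratio turned to 0.63. With pathway genes kept in the clustering, the macrophage-like ratio turned to -0.20. In the Ppfia4/Ifi202b cluster Nos2 met the rule, at 47.5 CPM in VISTA KO and 25.9 CPM in WT cells (57 UMIs).

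Gch1, the first enzyme of tetrahydrobiopterin synthesis, was at 98.01 CPM in VISTA KO and 113 CPM in WT cells (log2 ratio -0.21, interval -0.25 to -0.16). Its order across classes differed from that of Nos2. The Ifit1bl1/Tnfsf10 cluster was highest at 169 CPM in VISTA KO and 183 CPM in WT cells, and monocyte-like cells, low in Nos2, came next at 154 and 166 CPM. The ranges of these neighbours did not overlap. Macrophage-like cells were at 64.8 CPM in VISTA KO and 77.0 CPM in WT cells, and in the Gpr84/Cxcl9 cluster Gch1 was at 93.0 and 126 CPM. Gch1 met the rule in the low-RNA AC149090.1/Malat1 cluster alone among those with at least 100 Gch1 UMIs, lower at 60.7 CPM in VISTA KO and 97.9 CPM in WT cells (39 UMIs). Of 12 listed genes for NO synthases and tetrahydrobiopterin, 9 had enough UMIs in all kept cells and none met the rule. Qdpr, which regenerates the cofactor, had the highest log2 ratio, 0.42, at 22.8 CPM in VISTA KO and 17.1 CPM in WT cells. In the Gpr84/Cxcl9 cluster Qdpr was higher by the rule (log2 ratio 0.97), the 1 of 6 measured there. Of all genes measured in that cluster, 7.4% were higher.

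RefSeq promoter windows, from 250 bases before to 50 bases after a start site, were at hand for Slc7a1, Oat, Ass1 and Gch1. Those of Gch1 and Ass1 are shown because these 2 genes were highest in the clusters led by interferon-induced genes. They were searched on both strands for the GAS element TTCNNNGAA, the STAT6 element TTCNNNNGAA, the hypoxia element core ACGTG, the TATA box TATAAA, the interferon element GAAANNGAAA and the kappaB consensus. Matches are in capitals. The Gch1 window is chr14:47189364-47189663 on the minus strand and the Ass1 window is chr2:31470020-31470319 on the plus strand, both GRCm38.p6.
Gch1: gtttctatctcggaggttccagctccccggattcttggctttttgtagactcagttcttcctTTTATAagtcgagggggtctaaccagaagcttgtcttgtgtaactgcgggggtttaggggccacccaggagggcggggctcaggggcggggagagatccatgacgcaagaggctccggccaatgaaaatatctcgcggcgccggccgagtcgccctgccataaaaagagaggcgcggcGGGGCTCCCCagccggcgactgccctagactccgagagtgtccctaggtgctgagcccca
Ass1: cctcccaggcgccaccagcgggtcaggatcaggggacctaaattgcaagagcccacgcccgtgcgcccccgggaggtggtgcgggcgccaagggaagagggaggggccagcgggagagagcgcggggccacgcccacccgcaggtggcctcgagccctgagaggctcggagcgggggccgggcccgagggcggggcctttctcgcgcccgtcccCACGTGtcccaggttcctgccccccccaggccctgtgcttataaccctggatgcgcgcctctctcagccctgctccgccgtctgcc
The Gch1 window held a kappaB consensus 10 bases before the start site, a motif found in 8.49% of 32544 windows, and the TATA letters on the opposite strand 188 bases before it, found in 13.6%. The Ass1 window held the hypoxia core on both strands in 1 palindrome 36 bases before the start site, and 19.7% of windows hold that core. Neither window held the GAS, STAT6 or interferon element letters, which are in 8.33%, 6.98% and 3.45% of windows. These are descriptions of letters and not of bound sites.

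Ass1, which joins citrulline to aspartate, was at 268 CPM in VISTA KO and 223 CPM in WT cells (log2 ratio 0.27, interval 0.24 to 0.30). The Gpr84/Cxcl9 cluster was highest at 468 CPM in VISTA KO and 532 CPM in WT cells, then the Ifit1bl1/Tnfsf10 cluster at 446 and 412 CPM, with no overlap between these 2. The mature DC-like class was at 362 CPM in VISTA KO and 388 CPM in WT cells and could not be ordered against the Ccl7/Ccl2 cluster at 373 and 361 CPM. Monocyte-like cells were level between libraries at 205 CPM each (log2 ratio 0.00, interval -0.10 to 0.09). In macrophage-like cells Ass1 met the rule, at 222 CPM in VISTA KO and 144 CPM in WT cells (log2 ratio 0.62, interval 0.53 to 0.72). Neither of its 2 clusters reached 1.5-fold: Ass1 was at 279.9 CPM in VISTA KO and 240.0 CPM in WT cells of the C1q cluster (log2 ratio 0.22), and at 137 and 101 CPM in the Mmp12 cluster (log2 ratio 0.43). The C1q cluster held 2392 of the 3572 VISTA KO and 439 of the 1189 WT macrophage-like cells, so the class ratio also carries this unequal mix. With a stricter cell filter this ratio was 0.07 (-0.02 to 0.16) and with each library clustered alone 0.28 (0.20 to 0.36), so the call did not hold in these settings. The NK cell-like class moved the same way, at 159 CPM in VISTA KO and 90.5 CPM in WT cells (log2 ratio 0.81), beside the macrophage marker sums given above. The part of such RNA in either difference was not tested. Asl, which releases arginine from argininosuccinate, was level at 31.7 CPM in VISTA KO and 32.0 CPM in WT cells (log2 ratio -0.02, interval -0.10 to 0.07) and highest in mature DC-like cells at 46.7 and 61.5 CPM. Of 7 listed genes for citrulline recycling and the urea cycle, 4 had enough UMIs in all kept cells and none met the rule. Their log2 ratios ran from Ass1 at the top to -0.16 for Slc25a13, a mitochondrial aspartate-glutamate carrier. In monocyte-like cells Slc25a13 was lower by the rule (log2 ratio -0.74), the 1 of 4 measured, beside 1.97% of all genes measured there.

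By class, 3 of the 9 genes (Slc7a2, Arg2 and Ass1) were higher in VISTA KO macrophage-like cells and none lower, Ass1 in the class as a whole but in neither of its clusters, where 3.78% of all 9094 genes measured were higher and 2.46% lower. In monocyte-like cells 1 of 9 (Slc7a2) was higher and none lower, beside 4.71% and 1.97% of 7607 genes. In the Gpr84/Cxcl9 cluster 3 of the 8 measured genes (Arg1, Slc7a2 and Oat) were higher and none lower, beside 7.4% and 2.49% of 5352. In the Ccl7/Ccl2 cluster none of 8 met the rule, beside 4.1% higher and 1.42% lower of 5637. Slc7a2 was the 1 of 9 genes higher in the mixed neutrophil and macrophage class (background 4.03% higher, 1.85% lower) and the 1 of 7 higher in the Ifit1bl1/Tnfsf10 cluster (3.21% and 1.78%). In the Ppfia4/Ifi202b cluster 3 of 9 were higher, Arg2, Nos2 and Slc7a2 (3.39% and 1.85%). In the AC149090.1/Malat1 cluster Nos2 and Slc7a2 were higher and Gch1 lower of 5 measured (8.8% and 6.04%), with 5 WT UMIs behind the Nos2 value. In that cluster Malat1, a nuclear RNA, was at 52644 CPM in VISTA KO and 32657 CPM in WT cells and the median mitochondrial share at 3.57% and 2.94%, and their part was not tested. Slc7a2 was higher of 4 measured in the Gm26917/Dusp1 cluster (3.09% and 4.87%). None of 5 genes met the rule in the cDC2-like class (4.83% and 1.96%), and none of 4 in the mature DC-like class (4.93% and 2.03%). In NK cell-like cells, the background class, Arg1, Slc7a2 and Ass1 were higher of 7 measured (5.38% and 1.44%). The median log2 ratio of the members was 0.07 in macrophage-like and -0.11 in monocyte-like cells, beside 0.01 and 0.06 over all genes measured there.

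**Figure D2:**
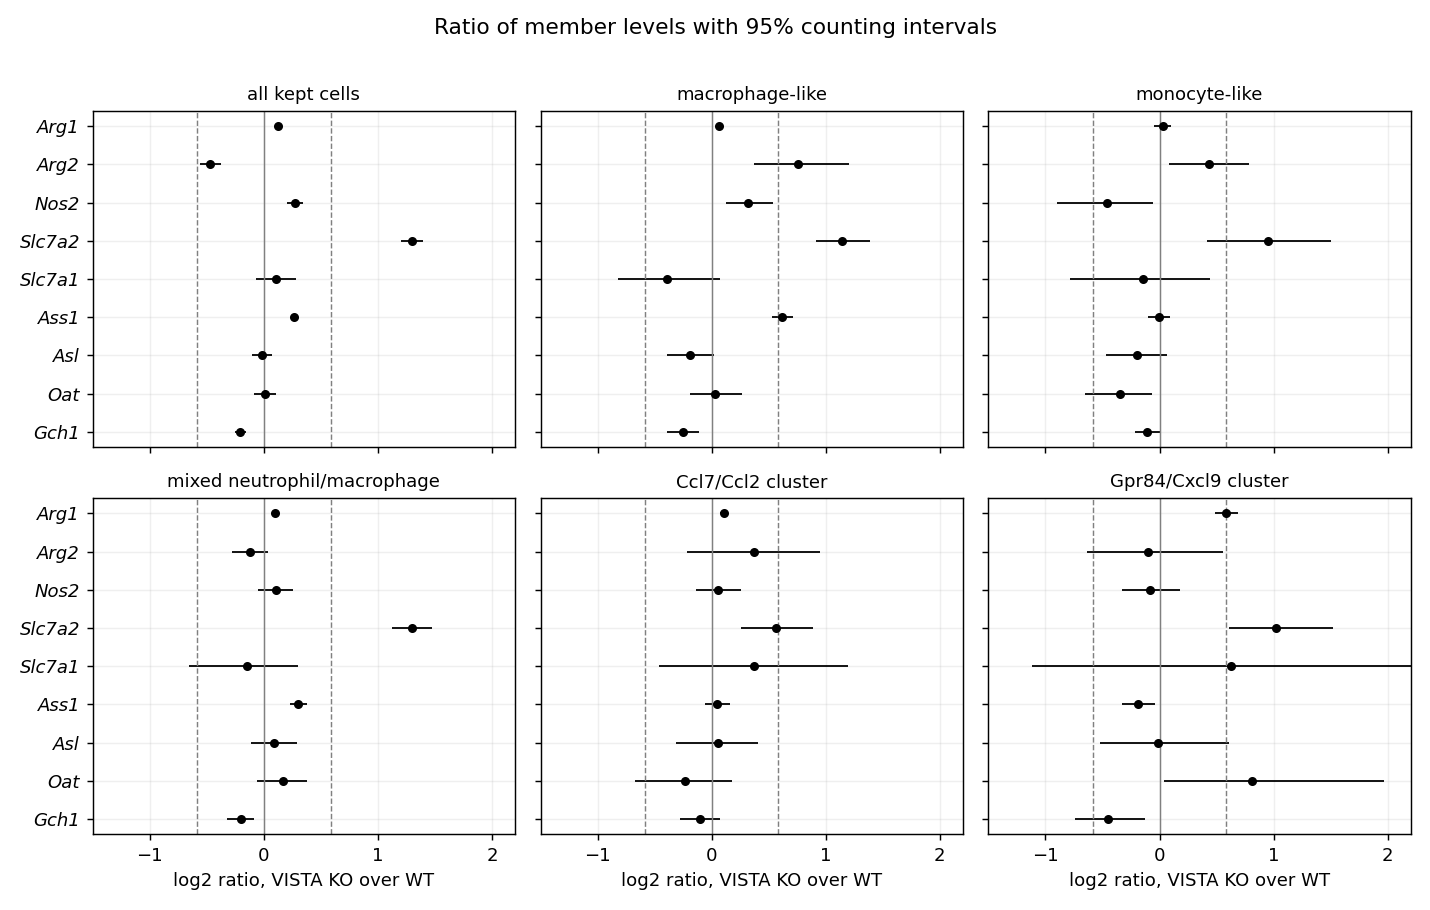
Log2 ratio of VISTA KO over WT for the 9 genes in all kept cells, 3 classes and 2 unnamed clusters. Points are ratios of summed counts with exact 95% counting intervals, the solid line is 0 and dashed lines mark 1.5-fold; the Slc7a1 interval of the Gpr84/Cxcl9 cluster runs past the axis. Slc7a2 lies right of the dashed line in all panels but the Ccl7/Ccl2 cluster, at 0.57.

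A list of interferon-gamma pathway genes and targets and a list of IL-4 and hypoxia pathway genes and targets were counted in the same way. Of 16 interferon-gamma side genes measured in all kept cells, Cxcl9, a T cell attracting chemokine, was higher at 751 CPM in VISTA KO and 337 CPM in WT cells. Il12b was higher too, at 4.56 and 2.79 CPM, and Il1b was lower at 1503 CPM in VISTA KO and 2396 CPM in WT cells. Neutrophil markers summed to 1497 CPM in VISTA KO and 5481 CPM in WT cells, and their part in the Il1b value was not tested. Il1b was not lower by the rule in any class or cluster counted, and in macrophage-like cells it was at 694 CPM in VISTA KO and 486 CPM in WT cells. In macrophage-like cells 1 of 15 measured, Cxcl9, met the rule (585 CPM in VISTA KO and 217 CPM in WT cells), with a list median log2 ratio of 0.37 beside 0.01 over all genes measured. Irf1, an interferon-induced transcription factor, had a log2 ratio of 0.25 there. Of 15 genes of the IL-4 and hypoxia side, Vegfa was higher in all kept cells at 110 CPM in VISTA KO and 72.8 CPM in WT cells, and Retnla lower at 13.8 and 94.4 CPM. An unnamed cluster led by Retnla and Lyz1 was 0.561% of VISTA KO and 1.295% of WT cells. Its part in the Retnla value of all kept cells was not tested. Retnla was higher by the rule in the mixed neutrophil and macrophage class (log2 ratio 0.69) and in the Ppfia4/Ifi202b cluster (log2 ratio 1.30). In macrophage-like cells Hif1a (287 CPM in VISTA KO and 178 CPM in WT cells) and Mgl2 (101 and 57.3 CPM) were higher, and Retnla was lower. In monocyte-like cells Tnf (14.0 CPM in VISTA KO and 8.03 CPM in WT cells) and Cxcl9 (493 and 292 CPM) were higher of 15 interferon-gamma side genes, and Egln3, at 8.16 CPM in VISTA KO and 12.6 CPM in WT cells, was lower of 13 on the other list. In the Gpr84/Cxcl9 cluster Vegfa, Klf4, Mgl2 and Ptgs2 were higher of 13 IL-4 and hypoxia side genes, with Ptgs2, the inducible prostaglandin synthase, at 305 CPM in VISTA KO and 162 CPM in WT cells. Cxcl10 was lower there, at 2359 CPM in VISTA KO and 4096 CPM in WT cells, the 1 of 15 interferon-gamma side genes that met the rule. Of 10 listed genes for methylarginine and other arginine use, 8 were measured in all kept cells and none met the rule, with log2 ratios between -0.17 for Ddah2 and 0.33 for Azin2. Padi4 was higher by the rule in the mixed neutrophil and macrophage class (log2 ratio 0.70), 1 of 7 measured. It was also higher in the Ppfia4/Ifi202b cluster (1.00), 1 of 6 measured. Of all genes measured there, 4.03% and 3.39% were higher.

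Arg1 and Nos2 in the same cell were counted after thinning each cell to 1000 UMIs, which left out 1561 VISTA KO and 561 WT cells below that depth. Arg1 was then found in 54.0% of VISTA KO and 42.4% of WT cells, and Nos2 in 4.35% and 3.37%. Without thinning these shares were 73.4% and 57.9% for Arg1, and 13.7% and 12.1% for Nos2. In NK cell-like cells (median 3002 UMIs in VISTA KO and 2508 in WT cells) the thinned Arg1 share was 30.8% and 13.5%, and the Nos2 share 1.74% and 0.65%. Monocyte-like cells (median 3947 and 4432 UMIs) had thinned Arg1 shares of 19.0% in VISTA KO and 13.3% in WT cells, below the NK cell-like ones. Macrophage markers, however, summed to 7336 CPM in VISTA KO and 5273 CPM in WT NK cell-like cells. In monocyte-like cells they summed to 3120 and 1742 CPM, so the NK cell-like shares are not a background level for monocyte-like cells. The monocyte-like Nos2 share of 0.977% in VISTA KO cells was below the NK cell-like share too, and that of 1.25% in WT cells was above it.

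Both genes together were found in 3.16% (2.87 to 3.47) of VISTA KO cells and 2.26% (1.98 to 2.58) of WT cells. The product of the single shares was 2.35% in VISTA KO and 1.43% in WT cells, so the 2 transcripts met in the same cell 1.35 and 1.58 times as often as that product. Nos2 was detected in 5.85% of Arg1-positive and 2.58% of Arg1-negative VISTA KO cells, and in 5.34% and 1.93% of WT cells. Over all kept cells, which pool classes that differ in both genes, the share with Nos2 went up with the Arg1 level, as the plot of Nos2 detection by Arg1 level shows. In VISTA KO cells it was 2.58% at 0 Arg1 UMIs, 4.60% at 1, 5.52% at 2 to 4, 8.36% at 5 to 9, and 10.8% at 10 or more. In WT cells the shares over the same steps were 1.93%, 2.61%, 5.93%, 6.84% and 11.2%. Macrophage-like VISTA KO cells also rose at each step, from 2.26% to 6.67%. Other units did not rise at each step. The mixed neutrophil and macrophage class in VISTA KO had 6.2%, 3.6%, 4.8%, 7.9% and 0%, the last of 9 cells. The Ccl7/Ccl2 cluster in WT had 7.66%, 7.69%, 11.5%, 8.33% and 15.1%.

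**Figure D3:**
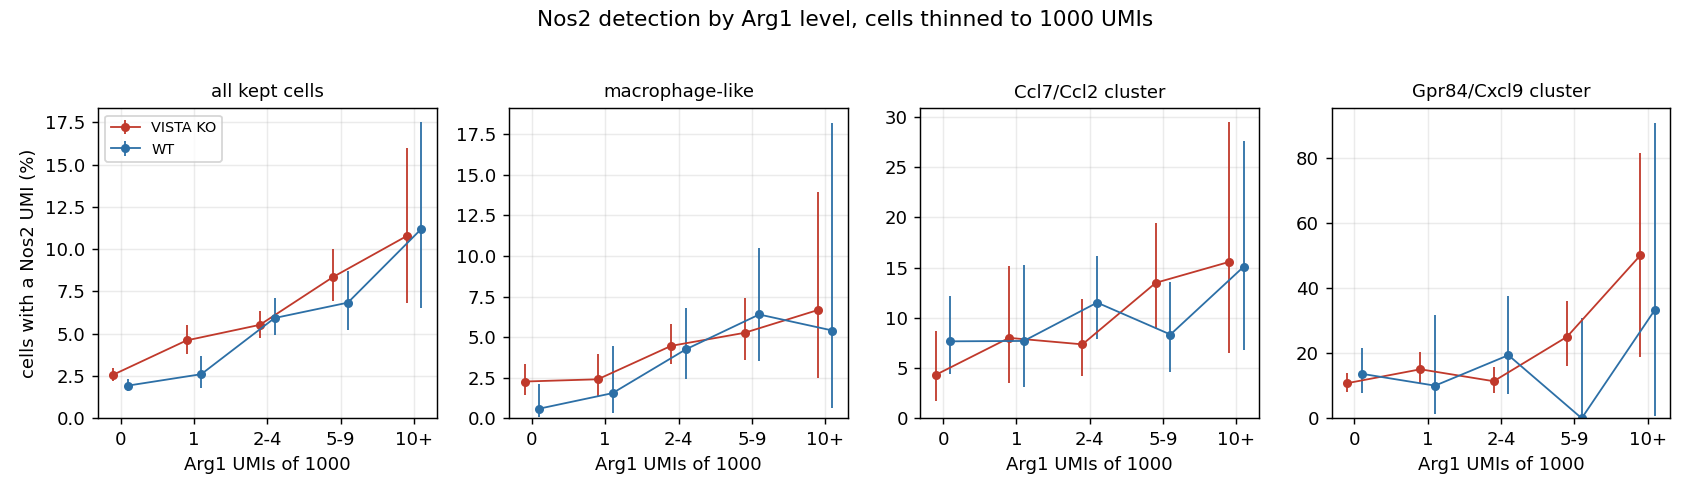
Share of cells with a Nos2 UMI (in percent) by the number of Arg1 UMIs, after thinning every cell to 1000 UMIs, for VISTA KO (red) and WT (blue) cells with exact binomial 95% intervals. The scales differ between panels. Over all kept cells the share goes from 2.58% to 10.8% in VISTA KO and from 1.93% to 11.2% in WT cells.

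Within classes and clusters with at least 10 such cells, the observed share was between 0.95 and 1.46 times the product. In macrophage-like cells both genes were found in 2.93% of VISTA KO (103 cells) and 3.00% of WT cells (35 cells), against products of 2.52% and 2.25%. Nos2 was found in 4.20% of Arg1-positive and 2.26% of Arg1-negative macrophage-like VISTA KO cells, and in 4.23% and 0.59% of the WT ones, the last from 2 cells. The Ccl7/Ccl2 cluster had both genes in 7.84% of VISTA KO and 7.50% of WT cells, against products of 6.77% and 6.99%. The Gpr84/Cxcl9 cluster had both in 8.63% (6.996 to 10.5) of VISTA KO and 5.17% (2.39 to 9.59) of WT cells, against 7.50% and 5.07%. In that cluster the Nos2 share was close between libraries, 13.3% and 13.8%, and the Arg1 share was 56.3% in VISTA KO and 36.8% in WT cells. In the mixed neutrophil and macrophage class the observed shares, 3.85% in VISTA KO and 3.47% in WT cells, lay beside products of 4.06% and 3.14%. Monocyte-like cells with both numbered only 6 in VISTA KO and 8 in WT cells and lie outside that range. Their shares were 0.345% (0.13 to 0.75) and 0.356% (0.15 to 0.70), against products of 0.185% and 0.165%. These are 1.86 and 2.15 times the product, and both intervals hold the product. The Spearman correlation of thinned Arg1 and Nos2 counts across cells was 0.10 in VISTA KO and 0.11 in WT cells, which share library, depth and free RNA.

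**Figure D4:**
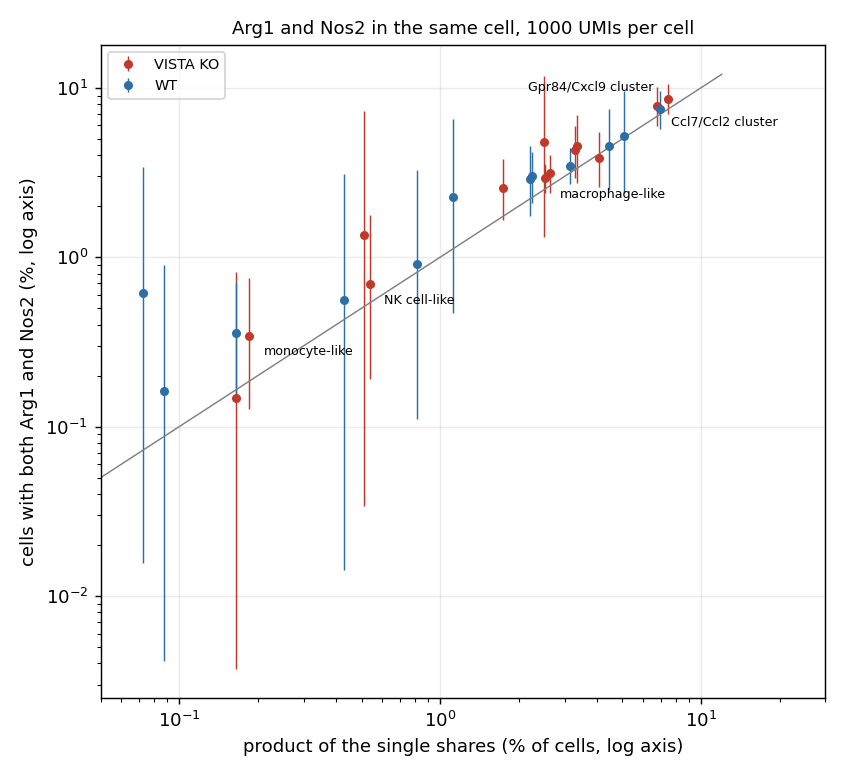
Share of cells with both Arg1 and Nos2 against the product of the single shares, in percent on log axes, 1 point per class or cluster and library with at least 1 such cell (VISTA KO red, WT blue). Bars are exact binomial 95% intervals and the line marks equality. Points with many cells sit near the line, such as the Ccl7/Ccl2 cluster at 7.84% and 7.50%.

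The other members differed between cells with both genes, one or neither. Over all kept VISTA KO cells, Slc7a2 was at 129 CPM in cells with both, 58.4 CPM with Arg1 only, 79.0 CPM with Nos2 only and 21.5 CPM with neither. The same order of ends held in WT cells at 43.7, 28.1, 16.7 and 8.02 CPM, where the Nos2-only value rests on 10 UMIs. Within macrophage-like VISTA KO cells Slc7a2 was at 151 CPM in cells with both (100 UMIs), 56.2 CPM with Arg1 only and 23.2 CPM with neither. In WT macrophage-like cells it was at 41.4 CPM (9 UMIs), 27.4 CPM and 9.27 CPM. Slc7a2 was thus higher in VISTA KO cells within each of the 4 states over all kept cells. In thinned cells, Slc7a2 and Nos2 were found together in 60 VISTA KO cells, 2.47 times the product, and in 9 WT cells, 1.66 times the product.

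Over all kept cells Ass1 was higher in cells with Nos2 and little different in cells with Arg1. It was at 342 CPM in VISTA KO cells with both genes, 401 CPM with Nos2 only, 260 CPM with Arg1 only and 278 CPM with neither, while 29.3% of Nos2-positive and 20.9% of Nos2-negative VISTA KO cells held an Ass1 UMI. Arg1-positive and Arg1-negative VISTA KO cells held Ass1 in 21.2% and 21.3%. Within classes the direction differed. In monocyte-like cells Ass1 was at 248 CPM with Arg1 only and 194 CPM with neither in VISTA KO, and at 254 and 195 CPM in WT cells. In macrophage-like cells it was at 209.5 CPM with Arg1 only and 250 CPM with neither in VISTA KO cells. The WT macrophage-like values were 136 (126 to 146) and 157 CPM (140 to 174), with overlapping intervals. Gch1 was at 104 CPM in VISTA KO cells with both, 93.0 CPM with Arg1 only, 117 CPM with Nos2 only and 106 CPM with neither, a narrow span. Outside the pathway, Cxcl9 was at 1888 CPM in Nos2-only and 695 CPM in Arg1-only VISTA KO cells, and at 1036 and 295 CPM in WT cells. Egln3, a hypoxia-induced prolyl hydroxylase, was at 60.2 CPM with both and 10.98 CPM with neither in VISTA KO cells, and at 95.5 and 16.8 CPM in WT cells. The median Ly6C tag count was 1270 with both and 791 with neither in VISTA KO cells, and 2117 and 715 in WT cells. These states differ in their mix of classes as well, and median depth ran from 4063 to 5077 UMIs in VISTA KO and from 4424 to 6076 in WT cells.

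**Figure D5:**
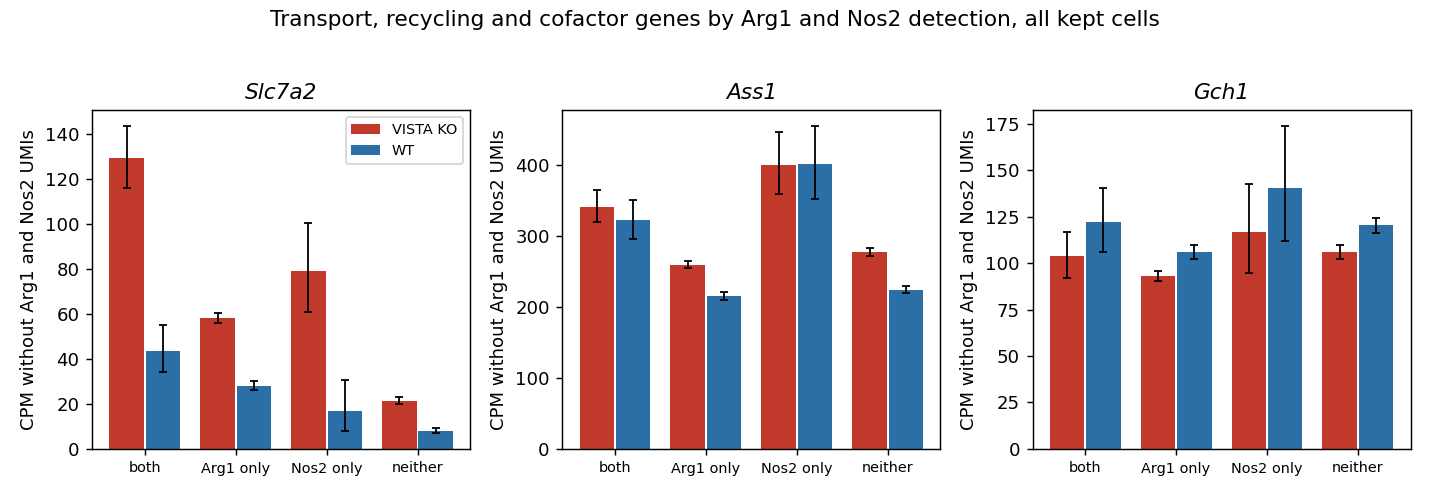
Level of Slc7a2, Ass1 and Gch1 in all kept cells by whether a thinned cell held Arg1 and Nos2, Arg1 only, Nos2 only or neither, for VISTA KO (red) and WT (blue). Bars are CPM of summed counts without Arg1 and Nos2 UMIs, with exact Poisson 95% intervals. Slc7a2 is highest in cells with both, at 129 CPM in VISTA KO and 43.7 CPM in WT cells.

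Across 37 cluster-by-library sums of at least 50 cells, Arg1 and Nos2 levels had a Spearman correlation of 0.67, Arg1 and Slc7a2 of 0.64, and Nos2 and Slc7a2 of 0.66. Ass1 and Asl, consecutive enzymes, had 0.74, Arg1 and Ass1 only 0.05, and Arg2 and Slc7a1 -0.64. Among 9078 genes, those most like Arg1 were Kcnk13 (0.91), C3ar1 (0.89), Etv5 (0.89), Snx5 (0.89) and Ctsl (0.88). Those most like Nos2 were Bnip3 (0.83), Pfkl (0.82), Gys1 (0.78), Pkm (0.77) and Sdc4 (0.77). C3ar1 encodes a complement receptor and Ctsl a lysosomal protease, while Pfkl and Pkm encode glycolytic enzymes, Gys1 a glycogen synthase and Bnip3 a hypoxia-induced mitophagy receptor. The sums share libraries, depth and free RNA, so these are descriptions with no test.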

How the data were processed

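The authors deposited counts of UMIs per gene or antibody tag and barcode, whole numbers without normalization, written by Cell Ranger 5.0.0 per the file headers. The submitters' processing notes name mm10, Cell Ranger and Seurat 4.0 without a role; settings for cell calling were not stated there. Cells with at least 200 genes, 500 UMIs and at most 10% mitochondrial UMIs were kept (99.2% of VISTA KO and 99.5% of WT barcodes). Both libraries were clustered together without integration (scanpy 1.11.5, leidenalg 0.10.2, 2000 variable genes per library without the members and pathway lists, 30 principal components, 15 neighbours, resolution 1). A class name needed at least 3 markers, each 1.5-fold above other cells and in 20% of the cluster. No doublet caller was applied; cells above 3 times the median UMIs were left out as an alternative.

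CPM and log2 ratios (VISTA KO over WT, pseudocount of 1 UMI per sum) came from summed counts, with exact Poisson intervals for levels, exact conditional binomial intervals for ratios and Clopper-Pearson intervals for shares (scipy 1.17.1). Ratio intervals were checked on simulated independent Poisson counts, the model they assume. That check does not cover the uneven spread of counts between cells. With 1 library per group no p-value was computed. All 9 members were named, with the highest and lowest member of each pathway list and the 5 genes most like Arg1 and Nos2; further genes were named after their values were seen. Members, lists and classes were chosen with earlier results of these data known. Levels in cells without C1q UMIs, and the monocyte-like class with 3 unnamed clusters added, were computed after seeing the data.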

Additional observations from a re-analysis of the deposited data

Results flagged for a closer look

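The Nos2 log2 ratio of VISTA KO over WT was positive in macrophage-like cells (0.32) and negative in monocyte-like cells (-0.46), with both counting intervals on one side of 0, a difference of 0.78. This difference was not tested, since each group held 1 library. The monocyte-like value rests on 72 UMIs in VISTA KO and 148 UMIs in WT cells. The thinned Nos2 share there was 0.977% in VISTA KO and 1.25% in WT cells. NK cell-like shares were 1.74% and 0.65%, but that class held higher macrophage marker sums and gives no background level for monocyte-like cells.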

How the results depend on the processing

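No paired analysis was possible because there was 1 library per group. No setting turned a ratio that met the 1.5-fold rule, and the Slc7a2 log2 ratio stayed at 1.22 to 1.42 in all kept cells, 0.91 to 1.62 in macrophage-like and 0.13 to 1.57 in monocyte-like cells. Arg1 and Nos2 ratios within classes did depend on the settings. For monocyte-like Arg1, 0.03 as reported, they gave -0.78 with a stricter cell filter, -0.13 with no lower or mitochondrial limit, 0.77 with each library clustered alone, 0.24 at Leiden resolution 2, -0.31 with pathway genes in the clustering, -0.54 without the most unequal cluster and -0.36 with clusters weighted equally. Adding the 3 unnamed clusters, chosen after seeing the data, gave 0.18. Monocyte-like Nos2, -0.46 as reported, was -1.37 with the stricter filter and 0.63 with those clusters added. Macrophage-like Arg1, 0.07 as reported, was 0.21, 0.15, 0.43, 0.10 and -0.21 under the first 5 of these settings, 0.27 without the most unequal cluster, 0.18 with equal weights and 0.00 (0.003) without cells above 3 times the median UMIs. Macrophage-like Nos2, 0.32 as reported, was 1.16 with each library clustered alone, -0.20 with pathway genes in the clustering and 0.57 without the most unequal cluster. Without it the class is 1 cluster; for the other settings the cause was not tested.

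Shares of cells with both Arg1 and Nos2 followed depth. In macrophage-like cells they were 5.41% in VISTA KO and 5.18% in WT cells at 2000 UMIs, 12.7% and 10.9% with no thinning, 0.313% and 0.600% at 2 UMIs of each gene, and 4.75% and 1.67% with each library clustered alone. The stricter filter gave 4.20% in VISTA KO. In monocyte-like cells they were 1.54% in VISTA KO and 1.76% in WT cells with no thinning, 0% and 0.089% at 2 UMIs, 1.54% and 1.35% with each library clustered alone, 1.73% and 1.23% at resolution 2, and 1.58% and 2.14% with pathway genes in the clustering. WT cells alone moved to 0.823% at 2000 UMIs and to 1.79% with the stricter filter. With genes of at least 20 UMIs, 590 genes were higher and 234 lower in monocyte-like cells, against 358 and 150, and 370 were lower in macrophage-like cells, against 224. The stricter filter left 88 lower there. Low UMI numbers limit Slc7a1, Oat within clusters (11 WT UMIs in the Gpr84/Cxcl9 cluster), and monocyte-like Nos2 and Slc7a2. They also limit macrophage-like Arg2, with 60 UMIs in WT cells.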
